A study of Mus musculus with 6 samples.

Results

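The genes described here are those of distal mouse chromosome 17, taken as every gene with a symbol and a single Ensembl identifier whose locus starts at or above 30 Mb in the mm10 coordinates of the authors' deposited table. Genes with an H2- symbol, Tap1, Tap2, Tapbp, Psmb8, Psmb9, Emr1 and Hsp90ab1 were left out, and a symbol on several rows was represented by its row with the highest mean FPKM (sequenced fragments per transcript length and library size). The rule found 306 genes among 9667 with a symbol and 1 identifier, which come from 12615 rows. They are compared with the 185 genes of chromosome 17 that start below 30 Mb, called proximal here. The first distal locus starts at 30004690 and the last ends at 94879694.

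The study sequenced RNA of Ba/F3 cells, a mouse pro-B cell line that grows on interleukin-3 (IL-3), in 2 groups of 3 replicates. The hCALR-del52 cells carried human calreticulin with the type 1 mutation, a deletion found in myeloproliferative neoplasms, and the hCALR cells carried unmutated human calreticulin. Both carried the pMSCV-IRES-GFP vector, a retroviral backbone, and were grown with IL-3 at 1 ng/ml, so that both hold a human transgene besides the mouse Calr gene. The labels do not say whether a group is 1 line or several, nor whether its replicates are separate cultures, and construct and line cannot be told apart. Each FPKM below is the authors' single value for a group, with no value per replicate, no SD and no known depth.

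Of 18 pro-B markers, only Cd79b and Ptprc were measured in the table. Cd79b was at 5.09 FPKM in hCALR-del52 and 8.64 FPKM in hCALR cells, and Ptprc at 60.1 and 83.1 FPKM. All 3 IL-3 receptor genes were measured, with a sum of 487 FPKM in hCALR-del52 and 803 FPKM in hCALR cells. The 6 measured of 8 erythroid markers summed to 751 FPKM in hCALR-del52 and 139 FPKM in hCALR cells, the 5 of 9 granulocyte and monocyte markers to 24.4 and 38.1 FPKM, and the 2 of 7 T and NK cell markers to 28.0 and 4.72 FPKM, in the same order. The erythroid sum was mostly Hbb-b1, at 422 FPKM in hCALR-del52 and 4.33 FPKM in hCALR cells, and Hba-a1, at 222 and 55.4 FPKM. Epb4.2 stood the other way at 12.6 and 15.9 FPKM, and Klf1 was not called, at 77.4 and 61.8 FPKM. Most of the T and NK sum was Cd3g, at 25.1 and 1.29 FPKM, while Nkg7 was at 2.92 and 3.43 FPKM. The granulocyte and monocyte markers went both ways, with S100a8, S100a9 and Ngp lower and Lyz2 and Mpo higher in hCALR-del52 cells. A q under 0.05 in the authors' deposited table is named a call here. It was given to 4 erythroid, 4 granulocyte and monocyte (all but Mpo) and 1 T and NK cell marker. None of 6 fibroblast markers was measured. In such bulk samples fewer cells of a type and less RNA per cell cannot be told apart, and the part of these markers in the results below was not tested.

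As background, mouse chromosome 17 carries the major histocompatibility complex (H2). The class III stretch of that complex is dense with unrelated genes, among them the TNF family genes Tnf and Ltb, the chromatin gene Ehmt2 and the chaperone gene Bag6. Beyond it the chromosome carries genes of many separate pathways, such as the mismatch repair gene Msh6, the calmodulin gene Calm2, the cyclin gene Ccnd3 and the exchange factor genes Vav1 and Sos1. The genes are thus grouped by position and not by function.

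Promoter windows of 6 members that are named in the results below are shown as examples. Brd2 and Rps18 lie close to each other on either side of the place where the ratios change, Myl12b is among the abundant genes with a low ratio, and Cdkl4, Cdsn and Nlrc4 are called genes with an entry in the RefSeq table. They were chosen after their values were seen. Each window runs from 250 bases before to 50 bases after a start site (RefSeq, GRCm38.p6), 5′ to 3′. It is the entry nearest to the annotated gene start, which lies 336, 374 and 329 bases away for Rps18, Myl12b and Cdkl4. Capitals mark any match on either strand to TATAAA (core letters of the TATA box), to CCAAT (bound by NF-Y), to GGGCGG (bound by the Sp and KLF family) or to TTCNNNGAA (bound by STAT factors). Matches of GGGCGG can overlap each other.
Rps18 (chr17:33955616-33955915, minus strand): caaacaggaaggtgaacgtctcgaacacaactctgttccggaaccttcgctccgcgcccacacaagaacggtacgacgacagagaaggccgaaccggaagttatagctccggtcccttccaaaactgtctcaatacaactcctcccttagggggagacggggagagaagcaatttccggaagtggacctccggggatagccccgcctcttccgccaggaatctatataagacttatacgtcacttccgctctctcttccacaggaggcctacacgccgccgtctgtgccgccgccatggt
Brd2 (chr17:34122558-34122857, minus strand): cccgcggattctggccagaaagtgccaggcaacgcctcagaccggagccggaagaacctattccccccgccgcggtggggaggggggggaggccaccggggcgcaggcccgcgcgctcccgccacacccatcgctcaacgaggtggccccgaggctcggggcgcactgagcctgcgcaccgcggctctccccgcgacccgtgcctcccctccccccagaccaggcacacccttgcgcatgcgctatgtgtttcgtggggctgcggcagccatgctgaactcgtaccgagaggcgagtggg
Myl12b (chr17:70990467-70990766, minus strand): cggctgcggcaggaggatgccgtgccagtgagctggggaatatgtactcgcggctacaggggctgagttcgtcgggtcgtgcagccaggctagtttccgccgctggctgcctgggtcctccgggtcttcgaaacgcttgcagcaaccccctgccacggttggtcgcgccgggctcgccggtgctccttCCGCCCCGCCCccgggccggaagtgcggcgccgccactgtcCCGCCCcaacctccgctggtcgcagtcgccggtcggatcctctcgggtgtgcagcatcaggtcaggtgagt
Cdkl4 (chr17:80577435-80577734, minus strand): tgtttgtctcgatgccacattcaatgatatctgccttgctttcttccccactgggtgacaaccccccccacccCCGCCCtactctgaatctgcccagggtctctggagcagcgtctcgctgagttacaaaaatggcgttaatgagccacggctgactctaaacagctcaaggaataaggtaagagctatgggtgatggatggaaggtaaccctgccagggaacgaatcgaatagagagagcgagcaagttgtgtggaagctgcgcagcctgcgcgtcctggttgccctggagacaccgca
Cdsn (chr17:35551878-35552177, plus strand): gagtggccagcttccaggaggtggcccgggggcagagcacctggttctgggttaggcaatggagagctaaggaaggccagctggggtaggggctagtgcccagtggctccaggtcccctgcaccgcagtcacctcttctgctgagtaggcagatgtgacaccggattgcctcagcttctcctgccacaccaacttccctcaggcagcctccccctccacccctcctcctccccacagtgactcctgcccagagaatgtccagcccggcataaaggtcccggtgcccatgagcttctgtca
Nlrc4 (chr17:74459059-74459358, minus strand): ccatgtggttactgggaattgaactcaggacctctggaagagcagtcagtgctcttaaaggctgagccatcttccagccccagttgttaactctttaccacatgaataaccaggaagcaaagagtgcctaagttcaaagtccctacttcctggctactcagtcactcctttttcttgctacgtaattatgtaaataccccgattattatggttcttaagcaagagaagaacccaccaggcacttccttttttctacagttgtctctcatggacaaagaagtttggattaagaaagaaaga

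Of these windows, that of Myl12b held 3 matches to GGGCGG and that of Cdkl4 held 1, and no letters of the 4 motifs were in the other 4. CpG dinucleotides numbered 33 in the window of Myl12b, 32 in that of Brd2 and 24 in that of Rps18, against 13, 5 and 2 in those of Cdkl4, Cdsn and Nlrc4. A window was matched for 245 of 306 distal genes, 140 of 185 proximal genes and 6895 of 9154 genes of other chromosomes. The median GC content was 59.3% for distal, 60.8% for proximal and 61.0% for other genes, and the median number of CpG was 21 in each of these sets. The distal windows were not uniform. Their median number of CpG was 12 for 37 genes at 30 to 34 Mb and 22 for 208 genes from 34 Mb on. CCAAT was present in 64.9% and 38.0% of these windows, in the same order. GGGCGG was present in 63.3% of distal, 72.1% of proximal and 66.2% of other windows, and in 35.9% of 27025 windows of the RefSeq table. That last set holds the first listed window of each RefSeq gene, measured here or not, so it was chosen differently from the others. For TTCNNNGAA these shares were 4.90%, 8.57%, 7.02% and 8.47%, for TATAAA 8.16%, 3.57%, 6.13% and 14.2%, and for CCAAT 42.0%, 45.7%, 39.3% and 37.9%, in the same order. Such matches describe letters and not binding.

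Most distal chromosome 17 genes had a lower FPKM in hCALR-del52 than in hCALR cells. Their median log2 ratio, log2((FPKM in hCALR-del52 + 1)/(FPKM in hCALR + 1)), was -0.25, and 259 of 306, or 84.6%, had a ratio below 0. Over all 9667 genes that share was 52.0%. The median plain fold was 0.821, and the median member had 16.8 FPKM in hCALR-del52 and 19.5 FPKM in hCALR cells. Proximal genes of the same chromosome had a median log2 ratio of -0.01, with 99 of 185 below 0. The region was picked because its values lie low in this same contrast, so that these figures are a description and were not tested.

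**Figure D1:**
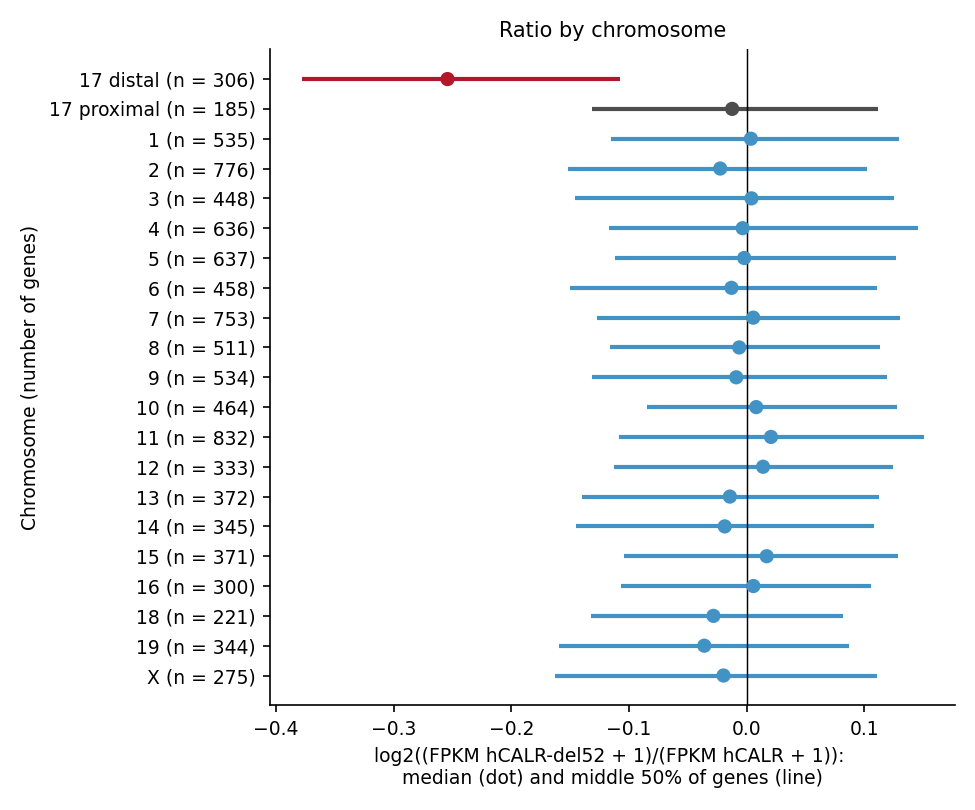
Median log2 ratio (dots) and middle 50% of genes (lines) for distal chromosome 17, proximal chromosome 17 and 19 other chromosomes with at least 50 genes. The distal median is -0.25, while the proximal median is -0.01 and the others lie between -0.04 and 0.02.

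The medians of the 19 other chromosomes ran from -0.04 on chromosome 19 to 0.02 on chromosome 11, and the share of genes below 0 from 46.2% to 57.9%. The middle 50% of distal genes spanned -0.38 to -0.11, against -0.13 to 0.11 for proximal genes and -0.13 to 0.12 for other chromosomes. A ratio below -0.2 was found for 190 of 306 distal genes (62.1%), 27 of 185 proximal genes (14.6%) and 17.1% of all genes. Yet 268 distal genes (87.6%) stayed within 0.5 of 0, and the authors' deposited table gave 8 of all 306 a log2 fold change of at least 1 in either direction.

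The displacement did not start at 30 Mb. The 46 distal genes at 30 to 34 Mb had a median log2 ratio of -0.01 with 25 below 0, close to the proximal genes. The 260 genes from 34 Mb on had a median of -0.29 with 234 below 0, or 90.0%. Along the chromosome the genes at 33 to 34 Mb had a median of 0.01 (20 genes), those at 34 to 35 Mb of -0.24 (24 genes), those at 35 to 36 Mb of -0.26 (32 genes) and those at 36 to 37 Mb of -0.29 (6 genes). The position at 34 Mb was chosen after these values were seen.

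**Figure D2:**
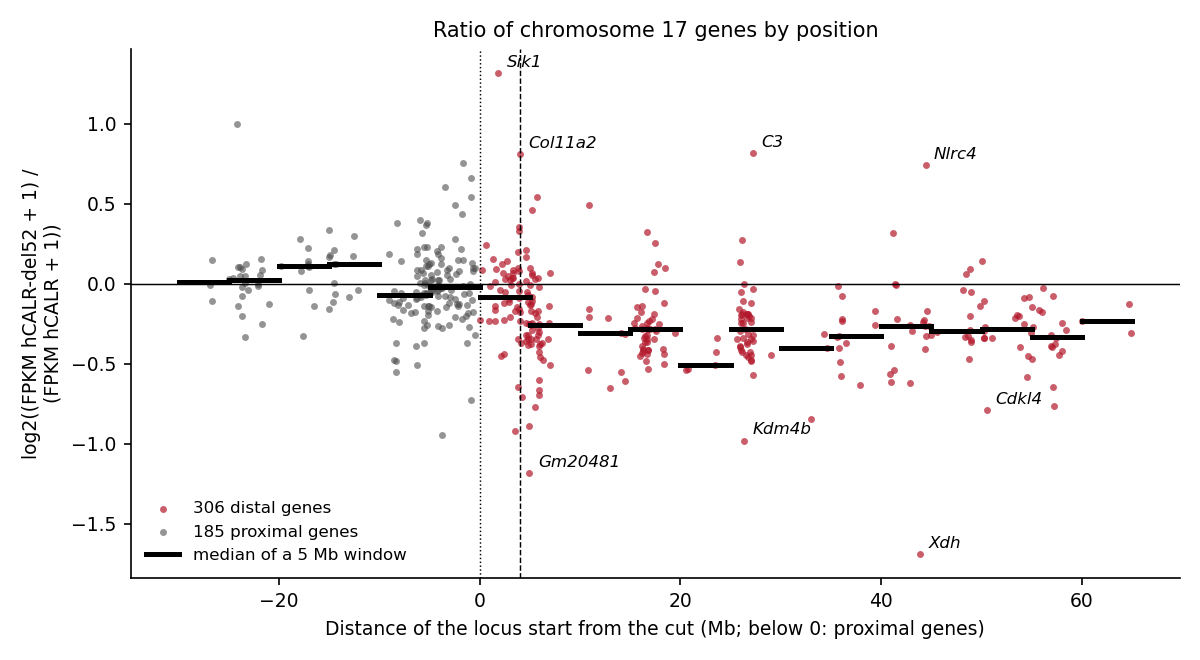
Log2 ratio of 306 distal and 185 proximal chromosome 17 genes against the distance of their locus start from the cut, in Mb, with the median of each 5 Mb window as a black line. The dotted line marks the cut and the dashed line 4 Mb beyond it; the windows that start 5 Mb or more past the cut lie between -0.51 and -0.23.

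Ordered by position, the genes split best, by the sum of absolute deviations from both medians, between Col11a2 (start 34038600) and Brd2 (start 34112022). The 234 genes up to Col11a2 had a median of -0.01 with 53.8% below 0, and the 257 from Brd2 on a median of -0.29 with 90.3% below 0. Genes left out by the rule took no part in this split. Of those, H2-Ke2 (start 33938821, ratio 0.04) and H2-K1 (start 33974786, ratio -0.42) lie before it. H2-Oa (start 34092340, ratio -0.40) lies between Col11a2 and Brd2. H2-DMa (start 34122849, ratio 0.13) lies just after Brd2 and stood the other way. Just before the split, Rps18, which encodes a protein of the small ribosomal subunit, was at 1986 FPKM in hCALR-del52 and 1879 FPKM in hCALR cells. Vps52, a subunit of a tethering complex for vesicles, shares that locus and was at 47.3 FPKM in both. Daxx, a histone chaperone gene, was at 17.2 FPKM in hCALR-del52 and 17.8 FPKM in hCALR cells. These 3 genes were thus almost level between the groups. Others among the last 10 before the split were less so, such as Kifc1 (ratio 0.36), B3galt4 (0.33) and Rgl2 (-0.16).

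The next members were mixed. Ring1, a Polycomb ligase gene, was at 15.4 FPKM in hCALR-del52 and 18.2 FPKM in hCALR cells, and Rxrb, a retinoid receptor gene, at 38.3 and 43.5 FPKM. Col11a2, a fibrillar collagen gene, stood the other way at 23.8 FPKM in hCALR-del52 and 13.1 FPKM in hCALR cells. Brd2, which encodes a bromodomain protein that binds acetylated histones, was at 124 FPKM in hCALR-del52 and 161 FPKM in hCALR cells, a log2 ratio of -0.37. Rnf5, a ubiquitin ligase gene of the endoplasmic reticulum, was at 27.9 and 36.0 FPKM, and Atf6b, a gene of the ATF6 family, at 31.0 and 39.0 FPKM, in the same order. Of the first 10 members after the split, 3 stood the other way, all at low FPKM. Notch4, a Notch receptor gene, was at 1.26 FPKM in hCALR-del52 and 0.949 FPKM in hCALR cells, Ager, a receptor gene for glycated proteins, at 1.92 and 1.60 FPKM and Fkbpl at 3.68 and 3.63 FPKM. Since the genes near 34 Mb are few and scatter, the split is no more exact than the spacing of these genes.

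Beyond that split the level was even over most of the chromosome. In 5 Mb windows from 35 Mb on, the median lay between -0.51 and -0.23, where the lowest window held 5 genes and the highest 3. The better filled windows were at -0.26 for 35 to 40 Mb (39 genes), -0.28 for 45 to 50 Mb (48 genes), -0.28 for 55 to 60 Mb (45 genes) and -0.33 for 85 to 90 Mb (18 genes). In consecutive sets of 50 genes, the first distal set had a median of -0.03 with 28 genes below 0, and the other 5 had medians of -0.33 to -0.25 with 40 to 47 below 0. The 176 such sets on other chromosomes and proximal chromosome 17 had medians of -0.10 to 0.10 with 15 to 39 below 0. From Srsf7 (start 80200081) to the last member, 38 genes in a row had a ratio below 0, while the longest such row on another chromosome held 15 genes, on chromosome 2. Genes that share a locus are not independent in such a row.

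**Figure D3:**
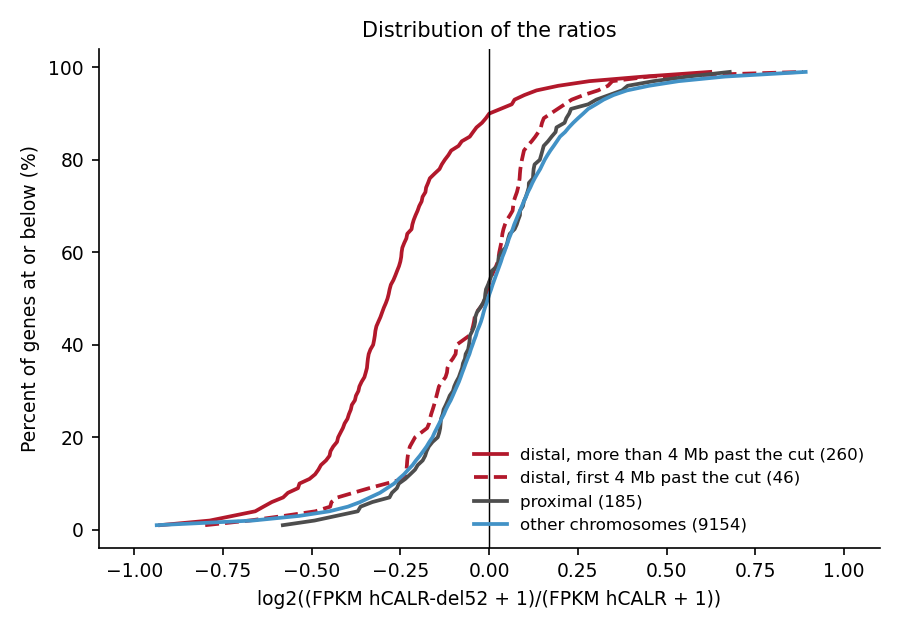
Percent of genes at or below a log2 ratio, for distal genes more than 4 Mb past the cut (260), distal genes in the first 4 Mb (46), proximal genes (185) and genes of other chromosomes (9154). The first curve lies left of the other 3 over most of its height and crosses 0 at 90.0% of genes, against 54.3% for the genes in the first 4 Mb.

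The low ratios were seen at every expression level. In 4 groups of members by mean FPKM, the median log2 ratio was -0.19 (1.03 to 7.77 FPKM), -0.29 (7.89 to 17.6 FPKM), -0.29 (17.8 to 38.1 FPKM) and -0.25 (38.6 to 7214 FPKM). Genes of other chromosomes in the same FPKM ranges had medians of -0.01, -0.01, -0.01 and 0.02. In the lowest group 23 of 77 members were not below 0. That group includes genes of the first 4 Mb, such as Sik1 and Zfp81. The added 1 draws ratios at low FPKM towards 0 but does not change their sign. The median plain fold was 0.842 in the lowest and 0.838 in the highest group, and 0.803 and 0.814 in the groups between. The 153 members on the plus strand had a median of -0.24 and the 153 on the minus strand of -0.28. The 296 protein-coding members had a median of -0.26, and 8 members of other annotated types of -0.19, 7 of them below 0.

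Few of these differences passed the authors' test. At the authors' q under 0.05 in the deposited table, 3 of 306 members were lower in hCALR-del52 cells, or 0.980%, against a background of 0.859% of all genes, and 2 were higher, or 0.654%, against 0.962%. In either direction this made 5 of 306, against 1.82% of all genes. An unadjusted p under 0.05 in the authors' deposited table was given to 23 members with a lower and 5 with a higher value, or 7.52% and 1.63%, against 2.28% and 2.18% of all genes. As the members were chosen on this contrast, nothing is read from these counts.

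Xdh (ENSMUSG00000024066, chromosome 17, 73883895 to 73950196, mm10), which encodes xanthine dehydrogenase, the enzyme that makes uric acid, was at 0.0721 FPKM in hCALR-del52 and 2.46 FPKM in hCALR cells. The authors' deposited table gave it a log2 fold change of -5.09 with q = 0.00161. Its hCALR-del52 value is close to 0, so that the size of this fold is uncertain. Cdkl4 (80523550 to 80577813), a gene of the cyclin-dependent kinase-like family, fell to 3.99 FPKM in hCALR-del52 cells, against 7.62 FPKM in hCALR cells, with q = 0.0140 in the authors' deposited table. Cdsn (35552128 to 35557180), which encodes the skin adhesion protein corneodesmosin, fell to 1.81 FPKM in hCALR-del52 cells, against 3.79 FPKM in hCALR cells, with q = 0.0241 in the authors' deposited table. With Benjamini-Hochberg adjustment of the authors' deposited p over all 12615 rows, the call of Cdsn ended at an adjusted p of 0.0744.

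The other two called genes were higher in hCALR-del52 cells. Sik1 (31844250 to 31855804), a salt-inducible kinase gene, rose to 11.5 FPKM in hCALR-del52 cells, against 4.02 FPKM in hCALR cells, with q = 0.00161 in the authors' deposited table. It lies in the first 4 Mb, where the ratios as a whole were not low. Nlrc4 (74425438 to 74459142), which encodes an inflammasome sensor that works with NAIP proteins, rose to 1.64 FPKM in hCALR-del52 cells, against 0.576 FPKM in hCALR cells, also with q = 0.00161 in the authors' deposited table. Its mean of 1.11 FPKM is near the lowest mean of all genes, 1.00 FPKM, so that the size of this rise is uncertain. Between Xdh and Nlrc4 lie 4 members, Memo1, Dpy30, Spast and Slc30a6, none of them called, with log2 ratios of -0.24, -0.23, -0.27 and -0.41.

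Among the 260 members with a mean of at least 5 FPKM, the 8 lowest ratios belonged to Cdkl4 and 7 genes that were not called. Kdm4b, a histone demethylase gene, was at 19.3 FPKM in hCALR-del52 and 39.1 FPKM in hCALR cells, with q = 0.146 in the authors' deposited table. Myo1f, an unconventional myosin gene of leukocytes, was at 4.55 and 9.53 FPKM with q = 0.0811 in the authors' deposited table, and Neu1, the lysosomal sialidase gene, at 8.55 and 16.7 FPKM with q = 0.163 in that deposited table, in the same order. Fbxl17, an F-box gene, was at 6.30 FPKM in hCALR-del52 and 12.2 FPKM in hCALR cells, and Mcfd2, whose product carries coagulation factors out of the endoplasmic reticulum, at 23.7 and 41.0 FPKM. These 5 genes had folds of 0.477 to 0.578.

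Gm20481 had the lowest ratio of this group, at 4407 FPKM in hCALR-del52 and 10020 FPKM in hCALR cells, and p = 0.170 in the authors' deposited table. Its deposited locus also covers Hspa1a and Hspa1b, a pair of near-identical Hsp70 genes, so that its value cannot be assigned to Gm20481 alone. The same holds for Gm15821, a long non-coding RNA gene at 38.0 and 62.8 FPKM whose locus overlaps Psmb8 and Tap2.

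**Figure D4:**
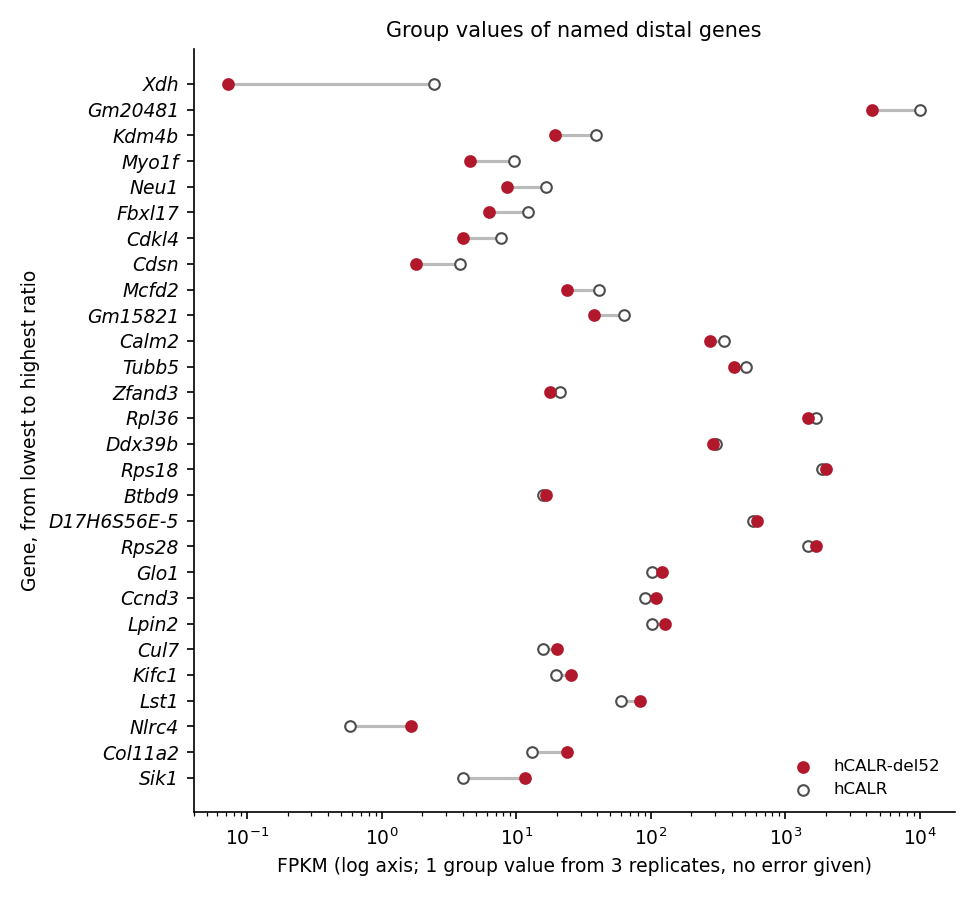
FPKM of 28 named distal genes on a log axis, ordered from the lowest to the highest log2 ratio, with filled dots for hCALR-del52 and open dots for hCALR cells. Each dot is 1 group value with no error. Xdh has the widest gap, and Calm2, Tubb5 and Rpl36 lie slightly lower in hCALR-del52 cells.

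Of the other abundant members, Ddx39b, an RNA helicase gene of splicing and export, was at 287 FPKM in hCALR-del52 and 305 FPKM in hCALR cells, and D17H6S56E-5, whose locus also covers Vars, at 619 and 578 FPKM.

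A minority of members stood at or above equality. Beyond 34 Mb there were 26 of 260, and 12 of them lay at 34 to 37 Mb, where 50 of 62 were below 0. From 37 Mb on 184 of 198 were below 0. Lst1, a leukocyte gene of the class III stretch, was at 82.3 FPKM in hCALR-del52 and 59.5 FPKM in hCALR cells. Ltb, which encodes lymphotoxin beta, was at 32.1 and 30.6 FPKM, and Tnf at 1.48 and 1.40 FPKM, in the same order. Cul7, a cullin scaffold gene of ubiquitin ligases, was at 19.99 FPKM in hCALR-del52 and 15.8 FPKM in hCALR cells, Lpin2, a phosphatidate phosphatase gene, at 126 and 101 FPKM, and Ccnd3, which encodes cyclin D3 and whose locus covers Bysl, at 109 and 91.1 FPKM. C3, the central complement gene, was at 5.42 FPKM in hCALR-del52 and 2.64 FPKM in hCALR cells. None of these 7 genes was called.

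Many members have relatives or partners encoded elsewhere, which allowed a loose comparison within lists of related genes. The lists are broad and hold genes of differing roles, such as Myo1f and Emilin2 beside tubulin genes. In 15 lists, 101 distal genes were measured with a median log2 ratio of -0.25 (83 below 0). The 176 measured genes of the same lists on other chromosomes had a median of 0.06 (64 below 0). Over all 9154 genes of other chromosomes the median was -0.003 with 50.8% below 0, so the listed genes elsewhere lay above that background. Of the 12 lists with at least 3 measured genes on either side, the distal median was the lower one in 12. At the authors' q in the deposited table, none of the 101 distal genes and 2 of the 176 elsewhere were called, against 1.82% of all genes. Those 2 were Tnfsf4, a TNF family gene, and Zfp36, which encodes an mRNA-binding protein, both higher in hCALR-del52 cells. The lists were drawn up with the low values of the region known, so that these counts describe the region once more.

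**Figure D5:**
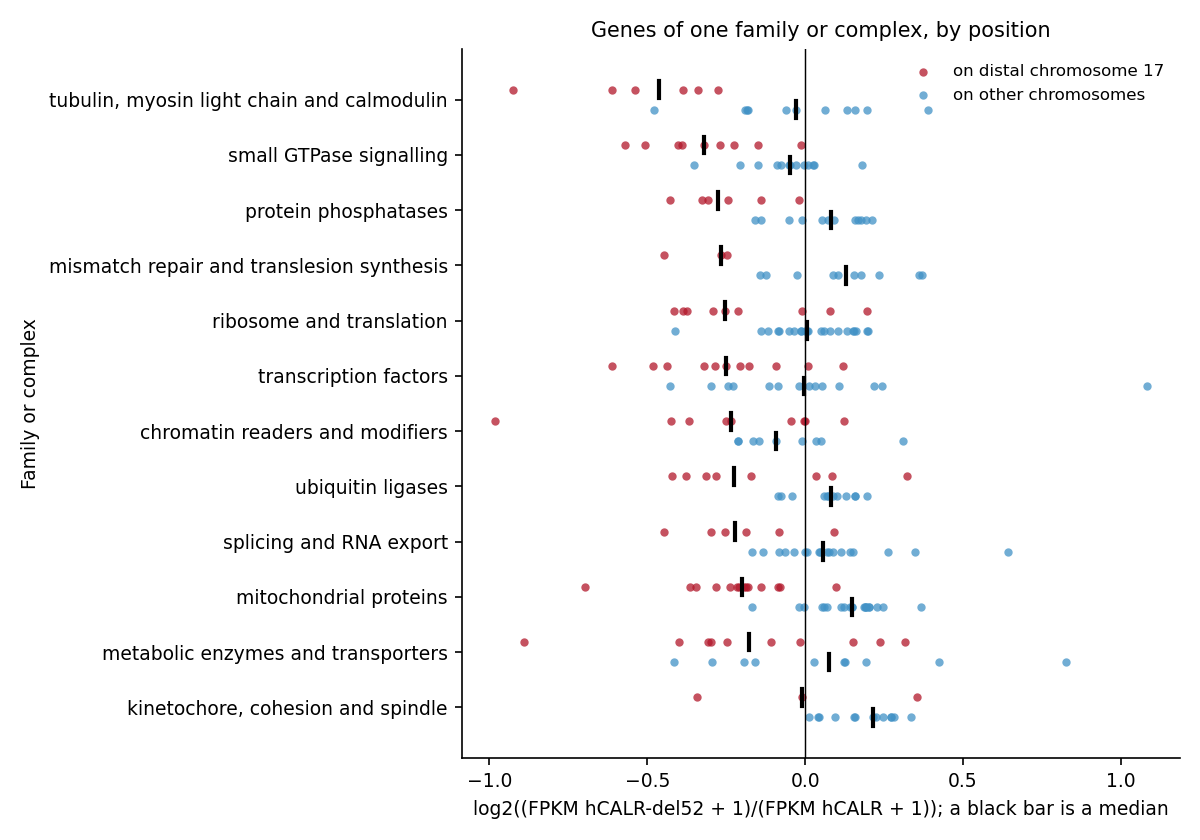
Log2 ratios of genes in 12 broad lists of related genes, with black bars at the medians. Distal chromosome 17 genes are above and genes of other chromosomes below in each pair of rows. In each of the 12 the distal median lies left of the other; the distal medians run from -0.46 to -0.01 and those elsewhere from -0.09 to 0.21.

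In mismatch repair, Msh6, a subunit of a mismatch recognition complex, was at 36.7 FPKM in hCALR-del52 and 43.8 FPKM in hCALR cells. Its relative Msh3 on chromosome 13 was at 8.65 FPKM in hCALR-del52 and 9.64 FPKM in hCALR cells. The bypass polymerase gene Polh, also distal, was at 14.2 FPKM in hCALR-del52 and 17.3 FPKM in hCALR cells. All 3 distal genes of this list were below 0, against 3 of 10 elsewhere.

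Calmodulin is encoded by several genes for the same protein. The distal one, Calm2, was at 277 FPKM in hCALR-del52 and 351 FPKM in hCALR cells. Calm3 on chromosome 7 was at 403 FPKM in hCALR-del52 and 361 FPKM in hCALR cells, and the ratios of Calm2 and Calm3 were -0.34 and 0.16. The non-muscle myosin light chain genes Myl12a and Myl12b, neighbours on distal chromosome 17, were at 110 and 214 FPKM in hCALR-del52 cells, against 144 and 327 FPKM in hCALR cells. Myl6, the essential light chain gene on chromosome 10, was at 384 FPKM in hCALR-del52 and 400 FPKM in hCALR cells. Tubb5, the main beta-tubulin gene of dividing cells, was at 417 and 505 FPKM, and Tubb4b on chromosome 2 at 189 and 193 FPKM, in the same order. Low ratios were also present among tubulin genes elsewhere, with -0.48 for Tubb6 on chromosome 18 and -0.18, -0.19 and -0.18 for Tuba1a, Tuba1b and Tuba1c on chromosome 15. All 6 distal genes of this list lay below 0, with a median of -0.46, and 6 of 11 elsewhere, with a median of -0.03. These counts include genes of other kinds, namely Myo1f (-0.92, before 34 Mb) and Emilin2 (-0.54) among the distal ones and Myh9 (0.19) and Myo1g (0.39) elsewhere. Near copies such as Myl12a and Myl12b can share reads.

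Among chromatin genes, 8 of 9 distal members were below 0 with a median of -0.23, and 6 of 9 genes elsewhere with a median of -0.09. Kat2b, an acetyltransferase gene, was at 21.5 FPKM in hCALR-del52 and 29.2 FPKM in hCALR cells, while its relative Kat2a on chromosome 11 was at 29.9 and 30.1 FPKM. Ehmt2, a histone H3 methyltransferase gene, was at 73.9 FPKM in hCALR-del52 and 88.1 FPKM in hCALR cells, and its partner Ehmt1 on chromosome 2 at 24.8 and 26.4 FPKM. Uhrf1, which recruits DNA methyltransferase, was level at 110 FPKM in both groups, and its partner gene Dnmt1 on chromosome 9 was at 95.1 and 76.6 FPKM. Smchd1, a gene of X chromosome silencing, was level as well, at 31.8 FPKM in hCALR-del52 and 31.9 FPKM in hCALR cells.

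For mitochondrial proteins 13 of 14 distal genes were below 0 with a median of -0.20, and 3 of 20 elsewhere with a median of 0.15. Lonp1, a protease of the mitochondrial matrix, was at 65.4 FPKM in hCALR-del52 and 84.5 FPKM in hCALR cells, and Mrps18b, a mitochondrial ribosomal gene whose locus is shared with other members, at 36.8 and 60.3 FPKM. Its relative Mrps18c on chromosome 5 was at 90.1 and 83.1 FPKM. Ndufa7, of respiratory complex I, was the single distal gene above 0, at 149 FPKM in hCALR-del52 and 139 FPKM in hCALR cells, and lies before 34 Mb. In the list of ribosome and translation genes, 7 of 9 distal genes were below 0, and 9 of 22 elsewhere. Of its ribosomal protein genes, Rps18 and Rps28, both before 34 Mb, had ratios of 0.08 and 0.20, and Rpl36, beyond it, a ratio of -0.21. Rps28, whose locus also covers Kank3, was at 1685 FPKM in hCALR-del52 and 1472 FPKM in hCALR cells, and Rpl36 at 1459 and 1690 FPKM.

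In splicing, 5 of 6 distal genes were below 0, and 6 of 18 elsewhere. Srsf7, an SR protein gene, was at 115 FPKM in hCALR-del52 and 141 FPKM in hCALR cells, whereas Srsf1 on chromosome 11 was at 352 and 353 FPKM. U2af1, a gene of splice site recognition that lies before 34 Mb, was at 85.5 FPKM in hCALR-del52 and 80.2 FPKM in hCALR cells. The neighbours Safb and Safb2, which encode scaffold attachment factors, were at 34.4 and 145 FPKM in hCALR-del52 cells, against 39.3 and 198 FPKM in hCALR cells.

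Genes of the small GTPase signalling list were below 0 in 9 of 9 distal cases and 9 of 13 elsewhere. Vav1, the exchange factor of blood cells, was at 31.7 FPKM in hCALR-del52 and 39.9 FPKM in hCALR cells, and Rab5a, a gene of early endosomes, at 18.6 and 26.8 FPKM. Its relative Rab5c on chromosome 11 was at 101 and 99.3 FPKM, while Rab5b on chromosome 10 was at 14.6 and 16.99 FPKM. Sos1 had a ratio of -0.27 and its relative Sos2 on chromosome 12 one of -0.35, the distal copy being the less low one.

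Genes of the transcription factor list were below 0 in 9 of 11 distal cases and 7 of 14 elsewhere. Runx2, a RUNX family gene, was at 13.5 FPKM in hCALR-del52 and 21.1 FPKM in hCALR cells, and its relative Runx1 on chromosome 16 at 24.8 and 30.7 FPKM. Nfya, a subunit of the CCAAT-binding factor NF-Y, was at 23.9 FPKM in hCALR-del52 and 32.8 FPKM in hCALR cells, its partner Nfyb on chromosome 10 at 27.6 and 29.4 FPKM and Nfyc on chromosome 4 at 39.4 and 33.8 FPKM. Srf, the serum response factor gene, had a ratio of -0.48. The 3 subunits of NF-Y thus had ratios of -0.44, -0.09 and 0.22.

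Of the other lists, protein phosphatase genes were below 0 in 6 of 6 distal cases and 4 of 12 elsewhere. Genes of the ubiquitin ligase list, which also holds Bag6 and Mdc1, were below 0 in 5 of 8 and 3 of 12. Bag6, a class III gene for a chaperone of misplaced membrane proteins, was at 81.5 FPKM in hCALR-del52 and 106 FPKM in hCALR cells. The kinetochore and cohesion list had distal ratios on both sides, with the shugoshin gene Sgol1 at 14.4 FPKM in hCALR-del52 and 18.5 FPKM in hCALR cells, Ndc80 at 31.6 and 31.8 FPKM and the kinesin gene Kifc1, before 34 Mb, at 25.5 and 19.7 FPKM. None of the 13 genes of that list on other chromosomes was below 0, and their median was 0.21. In the list of cyclins D and their kinases the 1 distal gene, Ccnd3, had a ratio of 0.25 and Ccnd2 on chromosome 6 one of 0.21. Complement and TNF family genes were below 0 in 2 of 5 distal cases, with a median of 0.05, and metabolic enzymes and transporters in 7 of 10, with a median of -0.18, while elsewhere 0 of 2 and 4 of 10 were below 0. The Hsp70 list had 1 distal gene, Hspa1l, at 1.29 FPKM in hCALR-del52 and 1.51 FPKM in hCALR cells.

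At the 30 Mb cut itself, the 3 nearest members were Zfand3 (ratio -0.23), Btbd9 (0.09) and Glo1 (0.24), and the 3 nearest genes below it were Ccdc167 (0.10), Pim1 (-0.32) and Fgd2 (-0.18). Zfand3, a zinc finger gene, was at 17.9 FPKM in hCALR-del52 and 21.1 FPKM in hCALR cells, and Glo1, the glyoxalase gene, at 121 and 103 FPKM. The 22 genes left out by the rule, mostly class I antigen presentation genes, had a median of -0.41 with 20 below 0, as the H2 gene H2-D1 shows with 126 FPKM in hCALR-del52 and 162 FPKM in hCALR cells. The distal median with these genes kept in was -0.27.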

How the data were processed

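RNA of 6 samples, 3 per group, was sequenced, and groups were taken from the sample titles. Bowtie2 2.1.0, TopHat2 2.0.9 and Cuffdiff 2.1.1 are named in the submitters' processing notes. Per the file headers, reads were placed on mm10 with Ensembl genes, and genes with low expression or high variability were removed. The authors deposited FPKM as 1 value per group, with the log2 fold change computed from it. The authors also deposited, for each gene, a p-value and a q-value adjusted by Benjamini-Hochberg. The deposited test statistic and rank scores were not used.

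No test over replicates could be made, and the authors' q under 0.05 defines a call. FPKM is scaled to the mapped fragments of a library, so a ratio is relative to the other genes. Ratios were computed as log2((FPKM hCALR-del52 + 1)/(FPKM hCALR + 1)) with Python 3.11.15 and pandas 2.3.3. Deposited starts were raised by 1, after which 122 members start at the same base as in GENCODE. GENCODE, on the same build, holds 304 of 306 members and gave the positions of called genes and the gene types. A deposited locus can cover several genes, and 49 members share theirs with another member. Promoters are RefSeq's (GRCm38.p6).

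Named are the called members, the 8 lowest and 8 highest ratios at a mean of at least 5 FPKM, the 8 highest FPKM, the 3 nearest genes on either side of the 30 Mb cut, and examples from 15 lists. Further genes, such as those around the split and between Xdh and Nlrc4, were named after their values were seen. The members and lists were chosen with earlier results of these data known. A few genes of these lists enter the counts but are not reported here by name.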

Additional observations from a re-analysis of the deposited data

How the results depend on the processing

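The distal median of -0.25 lay between -0.29 and -0.22 under 10 alternatives, among them another pseudocount, a minimum FPKM, every row of the region, and centring on other chromosomes. It moved beyond the 95% binomial interval of the median with a cut at 25 Mb (-0.22), at 35 Mb (-0.29) and, chosen after seeing the data, at 34 Mb (-0.29). That interval treats the members as independent draws, though 49 share a locus. It measures no spread between replicates and served only as a yardstick for a move. The proximal median stayed between -0.04 and -0.01 under 9. The share of members below 0, 84.6%, was 89.2% at a mean of at least 5 FPKM, 78.9% with the cut at 25 Mb, 91.1% at 35 Mb, 90.0% at 34 Mb and 80.0% over every row of the region. At q under 0.01, 1 member was called lower in place of 3, and with the cut at 34 Mb 1 was called higher in place of 2. No paired analysis was possible because only group values of FPKM were given. Leaving out a replicate and a fit with a replicate block were therefore not run, and the depth behind each value is unknown.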
